A study of Mus musculus with 24 samples.

Results

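Genes with a Kcn symbol encode the subunits of potassium channels. The gene count table of this mouse aorta study held 95 rows with such a symbol, among 25941 genes in all. Of these 95, 44 had a mean raw count of 10 or more over the 24 libraries and are described here. They were chosen by symbol and by level over all libraries, and the rule used no difference between groups. Earlier results of these data were known when they were chosen. Kcnk2 stood just inside the minimum with a mean count of 10.4. The other 51 rows lay under the minimum, and 3 of them (Kcnk16, Kcnk9 and Kcns1) had no count in any library.

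The tissue was thoracic aorta of adult male wildtype C57BL/6 mice, 10 to 12 weeks old, kept under 12 h of light and 12 h of darkness and sampled at ZT11, that is, 11 h after lights on. The 3 groups of 8 libraries differed in their chow over 3 weeks. One group received celecoxib at 100 mg/kg/day, another rofecoxib at 50 mg/kg/day, and the control group the same chow without a drug. Both drugs are inhibitors of cyclooxygenase-2; celecoxib carries a sulfonamide group and rofecoxib a methyl sulfone group. Because the doses differed, a difference between the drugs cannot be told apart from a difference in dose. The submitters describe the 8 libraries of a group as biological replicates but name no animal, so the p-values stand for the spread among these libraries, whatever its source. The numbers that end the sample titles run in a separate block for each group. The labels do not say what these numbers stand for, so any order behind them cannot be told apart from the chow.

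Potassium channels let potassium leave the cell, which hyperpolarises the membrane, closes voltage-gated calcium channels and relaxes the smooth muscle of a vessel. Voltage-gated channels open on depolarisation, calcium-activated channels on calcium release, inward rectifiers set the resting potential or report the metabolic state, and tandem-pore channels carry the background leak. Auxiliary subunits form no pore and instead tune the gating, trafficking or turnover of the pores they bind.

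The depth behind these values was nearly the same in every library, with totals of 21652432 to 21687906 counts, a range of 0.164%; which step made the totals so alike is not stated in the labels. Levels are given as CPM, that is, counts scaled to a common library size with TMM factors, which ran from 0.960 to 1.03. The 18 smooth muscle markers examined were all tested, and their mean log2 CPM lay between 9.78 and 10.2 in every library. The control library 6 had the highest brown adipocyte score, 5.82 against 4.68 or less in every other library, and rofecoxib library 2 the highest cardiac muscle score, 5.28 against 2.94 or less (8 of 14 markers tested). Fat, nerve and connective tissue surround the aorta, and scores of their markers are given beside the channel genes they moved with; in bulk tissue, fewer cells of a type and less RNA per cell cannot be told apart.

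The 2 genes described most fully below, Kcns3 and Kcnq5, were lower with celecoxib than with rofecoxib. Their edgeR adjusted p between the drugs stayed under 0.05 without any 1 library and after a GC correction. Their promoters are shown here for that reason. RefSeq lists 2 starts for each gene, and the 250 bases before each start are given from the GRCm38.p6 assembly, written 5′ to 3′ on the minus strand that carries both genes. Capitals mark matches to a GC box (GGGCGG on either strand). The Kcns3 windows are chr12:11150843-11151092 and chr12:11150374-11150623, and the Kcnq5 windows chr1:21962651-21962900 and chr1:21961943-21962192.
Kcns3 upstream start: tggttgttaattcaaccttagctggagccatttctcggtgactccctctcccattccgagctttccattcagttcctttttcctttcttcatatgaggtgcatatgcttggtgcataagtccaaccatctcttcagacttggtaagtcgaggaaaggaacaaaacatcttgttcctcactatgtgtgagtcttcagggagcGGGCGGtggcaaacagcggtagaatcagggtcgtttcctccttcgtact
Kcns3 downstream start: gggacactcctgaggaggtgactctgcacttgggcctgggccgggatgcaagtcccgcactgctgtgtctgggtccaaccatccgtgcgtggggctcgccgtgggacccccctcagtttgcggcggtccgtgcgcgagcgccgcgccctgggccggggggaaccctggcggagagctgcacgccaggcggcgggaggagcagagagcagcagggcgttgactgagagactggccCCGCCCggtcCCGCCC
Kcnq5 upstream start: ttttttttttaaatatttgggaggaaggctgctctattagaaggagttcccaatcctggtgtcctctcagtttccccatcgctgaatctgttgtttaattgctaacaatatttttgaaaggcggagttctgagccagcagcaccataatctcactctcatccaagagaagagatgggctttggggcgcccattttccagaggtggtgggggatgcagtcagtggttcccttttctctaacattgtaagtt
Kcnq5 downstream start: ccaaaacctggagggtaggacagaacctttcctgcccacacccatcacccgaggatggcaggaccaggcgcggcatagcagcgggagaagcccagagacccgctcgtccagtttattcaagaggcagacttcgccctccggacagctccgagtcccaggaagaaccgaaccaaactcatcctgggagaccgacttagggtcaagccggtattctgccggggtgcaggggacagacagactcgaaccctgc
The Kcns3 windows held 47.2% and 72.8% G and C, and the Kcnq5 windows 44.4% and 60.8%, against a median of 52.4% over 32536 promoter windows of the same length. A GC box lay in both Kcns3 windows, as in 33.0% of all windows, and in neither Kcnq5 window. No match to a TATA box (TATAAA, in 12.3% of windows), an E-box (CACGTG, in 6.04%), an AP-1 site (TGACTCA, in 4.45%), a cAMP response element (TGACGTCA, in 1.56%), a CArG box (in 1.5%) or a glucocorticoid response element (GNACANNNTGTNC, in 0.390%), searched on both strands, lay in these 4 windows. These are descriptions of letters and not of bound sites. Promoter entries were found for 32 of the 44 genes.

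The aortic potassium channel repertoire was led by a few genes. Kcnmb1, the smooth muscle beta subunit that raises the calcium sensitivity of the large-conductance calcium-activated channel, had the highest level per kilobase of exon, 67.0 ± 5.89 CPM per kb (SD over the 24 libraries). Kcnh2, a voltage-gated pore best known from cardiac repolarisation, followed at 34.2 ± 4.23 CPM per kb. Kcnab1 lay at 23.4 ± 2.94 and Kcnj8 at 22.7 ± 2.65 CPM per kb, with spreads that overlapped. Kcnc4 (14.2 ± 2.71) and Kcne4 (13.9 ± 1.98) lay lower, and their spreads overlapped as well. Kcns3 (7.24 ± 1.39), Kcnj15 (6.39 ± 1.72), Kcnk3 (6.24 ± 3.71) and Kcna5 (5.18 ± 1.85) overlapped in the same way. These SDs span all 3 groups, and differences between genes within the same library were not tested.

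**Figure D1:**
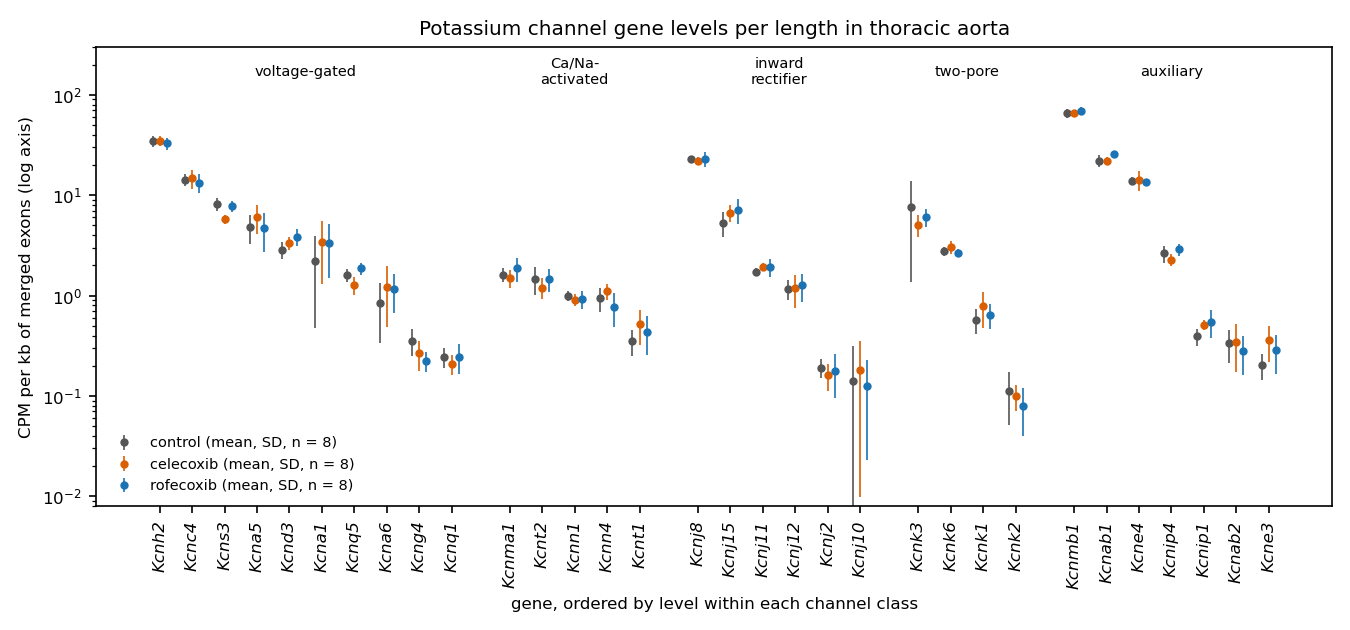
Levels of 32 of the 44 potassium channel genes in CPM per kb of merged exons on a log axis, by channel class; points are means and bars SDs over the 8 libraries of control (grey), celecoxib (orange) and rofecoxib (blue). Kcnmb1, Kcnh2, Kcnab1 and Kcnj8 stand highest, and the 3 groups lie close together for most genes (lower bars are cut short where they would reach 0).

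By class, 18 of 42 voltage-gated pore genes of the table met the minimum, as did 5 of 8 calcium- or sodium-activated, 6 of 15 inward rectifier, 6 of 14 tandem-pore and 9 of 15 auxiliary genes. In control aorta the auxiliary genes held 42.4% ± 3.29 (SD, n = 8) of the summed level per kb and the voltage-gated pores 38.2% ± 1.90. The inward rectifiers held 12.6% ± 0.633, the tandem-pore genes 4.67% ± 2.59 and the calcium- or sodium-activated genes 2.15% ± 0.267. Kcnma1, the pore that Kcnmb1 serves, lay at 1.66 CPM per kb, far below its beta subunit on the same scale. With celecoxib the share of the voltage-gated pores was 39.0% ± 1.98 and with rofecoxib 36.2% ± 2.41 (means and SDs). These spreads overlap that of control, and the shares were not tested. Kcnn3, Kcna2 and Kcna3, which are often studied in vessels, fell under the minimum.

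Few of the 44 genes differed between groups. Against control, 1 gene was called lower and 0 higher with celecoxib (edgeR quasi-likelihood test, Benjamini-Hochberg adjusted p under 0.05 over all genes tested). That is 2.27% of the 44, where 1.41% of the 14451 genes tested were called in that comparison, 0.498% lower and 0.913% higher. With rofecoxib 1 gene was called higher and 0 lower, against 5.3% of all genes called, 2.43% higher and 2.87% lower. Between the drugs, 4 genes were called lower and 1 higher with celecoxib, 11.4% of the members against 22.7% of all genes (11.2% lower and 11.5% higher). At an unadjusted p under 0.05 the comparisons counted 6, 6 and 11 members (13.6%, 13.6% and 25%), against 17.3%, 27.1% and 36% of all genes. The median absolute log2 fold change of the members was 0.207, 0.165 and 0.245 in these 3 comparisons, and that of all genes 0.0925, 0.119 and 0.139. Members near the count minimum have wide intervals, and the part of low counts in these medians was not tested. The comparisons share their libraries in pairs, so their calls are not independent.

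**Figure D2:**
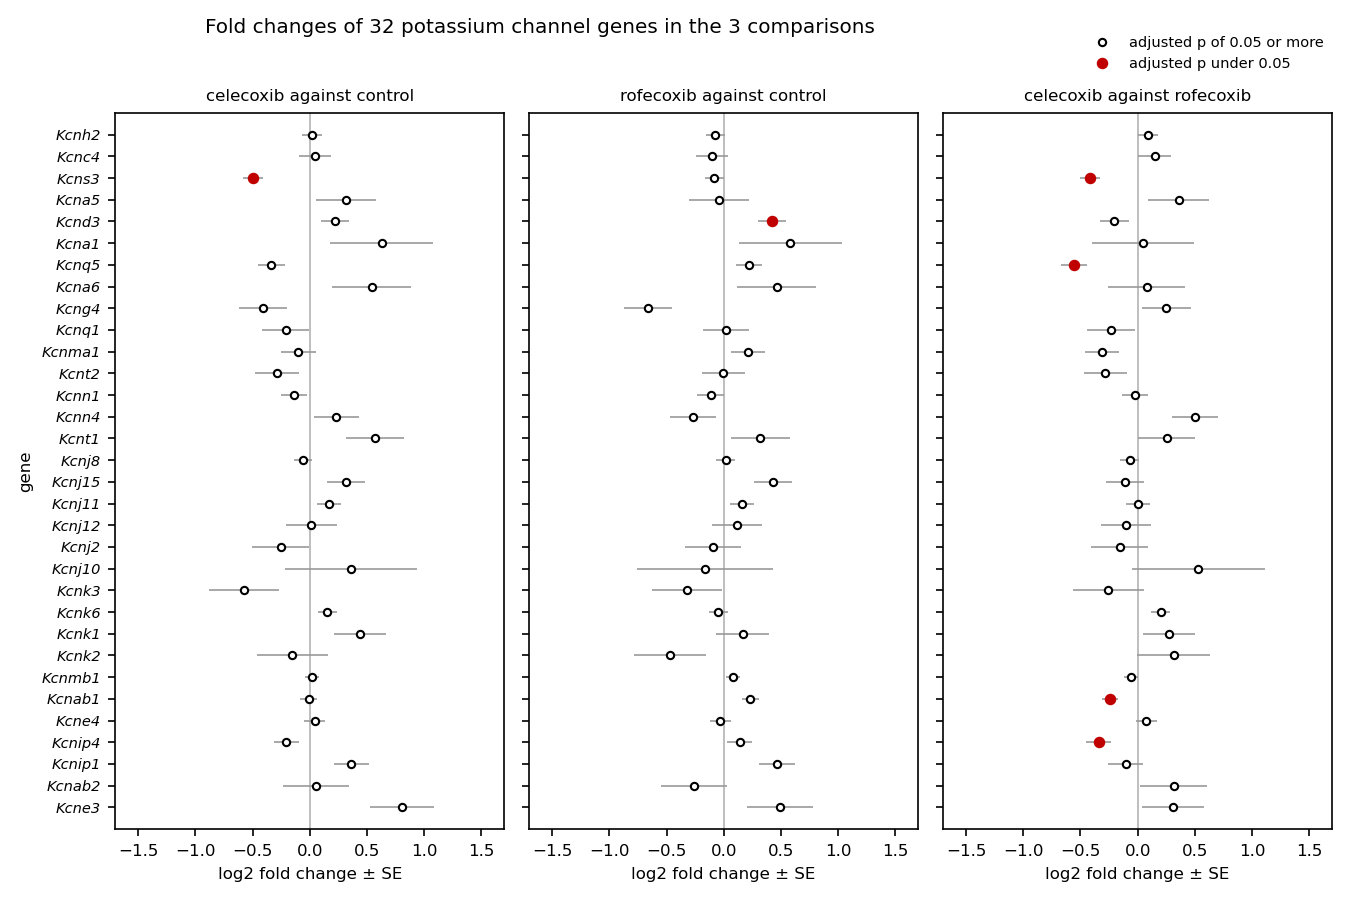
Log2 fold change with its SE (horizontal bars) for 32 of the 44 genes in the 3 comparisons; filled red points have an edgeR adjusted p under 0.05 and open points do not. Kcns3 is filled at the left of zero in both celecoxib panels, Kcnd3 alone is filled in the panel of rofecoxib against control, and wide bars belong to low or variable genes such as Kcnj10.

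Among the voltage-gated pores, Kcns3 fell with celecoxib. It encodes an electrically silent subunit that forms no channel alone and alters other voltage-gated pores when it joins them. Its gene lies on chromosome 12 from 11096806 to 11157850 in mm9, and its mean raw count was 497. The lowest, median and highest CPM were 21.73, 24.4 and 32.4 in control, 15.4, 18.1 and 20.98 with celecoxib, and 21.5, 24.0 and 30.1 with rofecoxib. All 8 celecoxib libraries thus lay below all 8 control libraries and below all 8 rofecoxib libraries, while control and rofecoxib overlapped over most of their range. Groups lay apart in this way, celecoxib lower, for 0.104% of all genes against control and 0.858% against rofecoxib. No other potassium channel gene had groups apart in any comparison, where 0.298%, 0.567% and 1.67% of all genes did so in either direction.

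The Kcns3 level was 29.1% lower with celecoxib than in control, a log2 fold change of -0.50 ± 0.09 (SE; 95% interval -0.67 to -0.32; adjusted p = 0.0101). Against rofecoxib it was 25.0% lower (log2 -0.42 ± 0.09, interval -0.59 to -0.24, adjusted p = 0.0027). Rofecoxib against control gave -0.08 ± 0.08, with an interval from -0.26 to 0.10. Both celecoxib calls were kept when each of the 24 libraries was left out in turn. The smooth muscle score was 0.17 higher with celecoxib than in control (10.1 ± 0.106 against 9.91 ± 0.10, ranges 9.92 to 10.2 and 9.78 to 10.1; exact permutation test, adjusted p = 0.0571 over 30 score tests). With that score as a covariate the Kcns3 change was -0.44 ± 0.11 with an adjusted p of 0.147, and 0 of all genes tested were called in that fit.

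Kcnq5, a voltage-gated pore of the family that carries slow non-inactivating current in nerve and vessel muscle, was lower with celecoxib than with rofecoxib. It spans 21388282 to 21952225 on chromosome 1 in mm9. The lowest, median and highest CPM were 10.3, 12.0 and 15.8 in control, 6.87, 9.49 and 12.4 with celecoxib, and 11.4, 14.6 and 17.6 with rofecoxib. The ranges of the drugs met only between 11.4 and 12.4, and the control median lay between theirs. Between the drugs the log2 fold change was -0.56 ± 0.12 (32.0% lower, edgeR adjusted p = 0.0029), and the call was kept in all 24 fits without one library. Neither drug passed against control, with -0.34 ± 0.12 for celecoxib (adjusted p = 0.137) and 0.22 ± 0.11 for rofecoxib (adjusted p = 0.212).

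Kcnd3, a fast-inactivating pore, was the one gene called with rofecoxib against control. It lies on chromosome 3 from 105255046 to 105477122. Its lowest, median and highest CPM were 18.1, 27.9 and 33.5 in control, 25.9, 30.4 and 40.6 with celecoxib, and 27.2, 36.8 and 47.2 with rofecoxib. The 2 groups overlapped between 27.2 and 33.5, and 5 of 8 rofecoxib libraries lay above every control library. The change was 0.42 ± 0.12 on the log2 scale (34.0% higher, edgeR adjusted p = 0.0477). The call was kept without celecoxib library 5 or 7, rofecoxib library 2, 4 or 5, or control library 1, 4 or 8. It was lost without any 1 of celecoxib libraries 1, 2, 3, 4, 6 and 8, rofecoxib libraries 1, 3, 6, 7 and 8, or control libraries 2, 3, 5, 6 and 7, with adjusted p from 0.0506 to 0.103 and fold changes of 0.36 to 0.45. The smooth muscle score was 0.18 higher with rofecoxib than in control (10.09 ± 0.0834, range 9.98 to 10.2; exact permutation test, adjusted p = 0.049), and with that score as a covariate the Kcnd3 change was 0.32 ± 0.15 (adjusted p = 0.277). With DESeq2 it passed (adjusted p = 0.0206), as did Kcnab1, Kcng4 and Kcnip1, which edgeR did not call. The fibroblast and adventitia score was 0.30 lower with rofecoxib than in control (exact permutation test, adjusted p = 0.0571). The macrophage and monocyte score was 0.47 lower (exact permutation test, adjusted p = 0.083). The part of these scores in the Kcnd3 change was not tested.

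**Figure D3:**
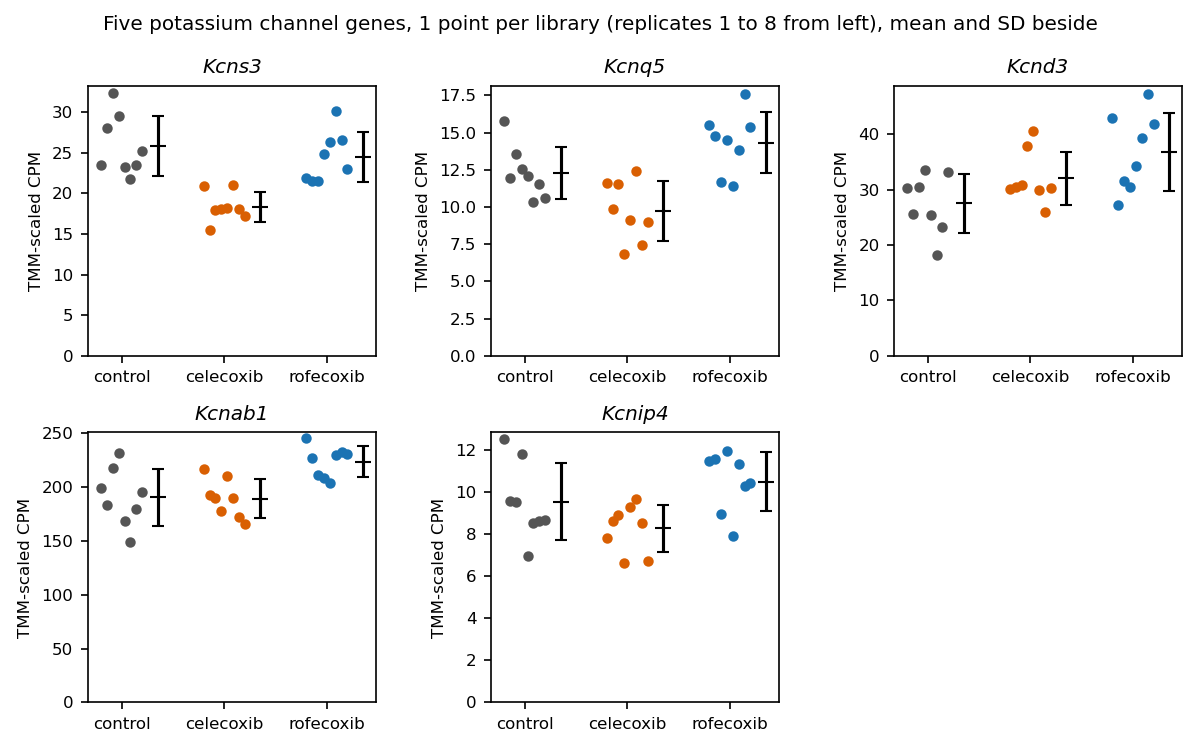
TMM-scaled CPM of 5 genes called in a comparison, 1 point per library in control (grey), celecoxib (orange) and rofecoxib (blue), with the mean and SD as a bar at the right of each group; axes start at 0. The celecoxib points of Kcns3 all lie at or below 20.98, under both other groups, whereas the points of the other 4 genes overlap between groups.

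The other voltage-gated genes described here did not pass in any comparison. Kcnh2 kept close to its control level, with a log2 fold change of 0.02 (interval -0.16 to 0.20) for celecoxib and -0.07 (interval -0.25 to 0.11) for rofecoxib. Kcnc4, a pore of fast repolarisation, lay at 52.6 ± 7.76 CPM in control, 54.2 ± 11.8 with celecoxib and 48.9 ± 10.4 with rofecoxib. Kcna5, a delayed rectifier of vessel muscle, ranged from 4.81 to 25.6 CPM over the libraries, and its interval for celecoxib against control ran from -0.23 to 0.87. Kcng4, another silent subunit, had -0.66 ± 0.21 with rofecoxib against control (edgeR adjusted p = 0.0599). It passed without celecoxib library 4 (0.0388) or control library 4 (0.0499). Its counts were low, with 1.35 ± 0.399 CPM in control and 0.853 ± 0.193 with rofecoxib. Kcnq1, a slow delayed rectifier of heart and epithelium, lay at 0.996 ± 0.224, 0.860 ± 0.192 and 1.01 ± 0.336 CPM in control, celecoxib and rofecoxib.

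None of the 5 calcium- or sodium-activated genes and none of the 6 inward rectifier genes was called in any comparison. Kcnma1, the large-conductance pore, lay at 27.3 ± 4.30 CPM in control, 25.5 ± 5.32 with celecoxib and 31.6 ± 8.53 with rofecoxib, and the drugs differed by -0.31 ± 0.15 (edgeR adjusted p = 0.139). Kcnn4, the intermediate-conductance pore of endothelium and blood cells, had 0.50 ± 0.20 between the drugs (adjusted p = 0.0707). It passed without celecoxib library 1 (0.0487), rofecoxib library 5 (0.0149) or control library 2 (0.0475). Kcnt2, a sodium-activated pore, lay at 10.1 ± 3.09, 8.29 ± 1.94 and 10.08 ± 2.64 CPM in control, celecoxib and rofecoxib, and Kcnn1, a small-conductance pore, at 4.59 ± 0.557, 4.17 ± 0.585 and 4.24 ± 0.835 CPM.

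Kcnj8, the pore of the vascular ATP-sensitive channel, was the steadiest of the 44 genes in control, with a coefficient of variation of 6.80%. It lay at 58.4 ± 3.97 CPM in control, 56.2 ± 5.44 with celecoxib and 59.0 ± 9.96 with rofecoxib, and the interval between the drugs ran from -0.24 to 0.09. Kcnj11, the other pore of that channel type, lay at 6.36 ± 0.544, 7.14 ± 0.712 and 7.11 ± 1.49 CPM in the same order. Kcnj15 had 0.43 ± 0.17 with rofecoxib against control (adjusted p = 0.104) and passed without control library 3 (0.0497). Kcnj2, the classical strong inward rectifier, lay at 1.04 ± 0.218, 0.873 ± 0.259 and 0.974 ± 0.456 CPM.

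The 6 tandem-pore genes were not called either. Kcnk3, an acid-sensitive leak channel, had the widest spread of the well-counted members. Control library 6 held 87.1 CPM while the other control libraries held 10.4 to 38.8, the celecoxib libraries 13.1 to 27.8 and the rofecoxib libraries 18.9 to 31.7. Celecoxib against control gave -0.57 ± 0.31 (edgeR adjusted p = 0.344), which became -0.12 ± 0.21 (adjusted p = 0.805) without control library 6. Kcnk6, which had the second highest level per kb of this class, lay at 11.4 ± 1.15 CPM in control, 12.7 ± 1.92 with celecoxib and 11.1 ± 1.09 with rofecoxib. The drugs differed in it by 0.20 ± 0.09 (adjusted p = 0.094). Kcnk1 lay at 1.28 ± 0.368, 1.74 ± 0.682 and 1.44 ± 0.391 CPM in control, celecoxib and rofecoxib.

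Among the auxiliary genes, Kcnab1 and Kcnip4 were lower with celecoxib than with rofecoxib. Kcnab1 encodes a beta subunit that speeds the inactivation of voltage-gated pores, and lies on chromosome 3 from 64913104 to 65182347. Its lowest, median and highest CPM were 149, 189 and 231 in control, 166, 189 and 217 with celecoxib, and 204, 228 and 246 with rofecoxib. The celecoxib libraries lay within the control range, and 5 of 8 rofecoxib libraries lay above every celecoxib library. The drugs differed by -0.24 ± 0.07 (15.4% lower with celecoxib, edgeR adjusted p = 0.0212). The call was lost without celecoxib library 8 (adjusted p = 0.0511) and after the GC correction (-0.14 ± 0.06, adjusted p = 0.140). Rofecoxib against control gave 0.23 ± 0.07 (adjusted p = 0.0565), which passed without rofecoxib library 5 (0.0466), control library 3 (0.0479) or control library 4 (0.025).

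Kcnip4 encodes a calcium-binding partner of fast-inactivating pores such as Kcnd3, and lies on chromosome 5 from 48780541 to 49916142. Its lowest, median and highest CPM were 6.98, 9.12 and 12.6 in control, 6.63, 8.59 and 9.68 with celecoxib, and 7.93, 10.9 and 12.0 with rofecoxib. Here 6 of 8 rofecoxib libraries lay above every celecoxib library. The difference between the drugs was -0.34 ± 0.11 (21.1% lower with celecoxib, edgeR adjusted p = 0.0298). It was lost without celecoxib library 4 (0.0627), celecoxib library 8 (0.0653), rofecoxib library 1 (0.0547) or rofecoxib library 2 (0.0518), and after the GC correction (-0.18 ± 0.10, adjusted p = 0.284). Beside the genes that differed between the drugs, the fibroblast and adventitia score was 0.33 higher with celecoxib than with rofecoxib (8.88 ± 0.181 against 8.55 ± 0.213, ranges 8.58 to 9.09 and 8.12 to 8.74, 16 of 16 markers tested; exact permutation test, adjusted p = 0.049). Its part in these differences was not tested.

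Kcnmb1, the most abundant member, was not called: the log2 fold change was 0.02 (interval -0.11 to 0.15) with celecoxib, 0.08 (interval -0.05 to 0.21) with rofecoxib and -0.06 (interval -0.19 to 0.07) between the drugs. Kcne4, a small subunit that restrains voltage-gated pores, lay at 36.9 ± 3.23, 38.0 ± 8.67 and 36.1 ± 1.67 CPM in control, celecoxib and rofecoxib. Kcne3 had the largest fitted change with celecoxib against control among the genes with a p under 0.05, 0.81 ± 0.28, at 0.361 ± 0.104 against 0.637 ± 0.253 CPM (edgeR adjusted p = 0.140). Kcnip1 had 0.47 ± 0.16 with rofecoxib against control (adjusted p = 0.0672) and passed without rofecoxib library 4 (0.0374). Kcnab2, another beta subunit of voltage-gated pores, lay at 1.87 ± 0.676, 1.94 ± 0.982 and 1.56 ± 0.659 CPM and overlaps Nphp4. Kcnmb1 lies inside the span of Kcnip1 and has a mean count of 6077 against 64.8, so reads of one may have been counted for the other. In all, 11 of the 44 genes overlap another gene of the table.

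After the GC correction, 1, 0 and 2 members were called in celecoxib against control, rofecoxib against control and celecoxib against rofecoxib, where 2.15%, 1.43% and 9.13% of all genes were called. Between the drugs both members were lower with celecoxib, as were 4.29% of all genes, while 4.84% were higher. The called genes were Kcns3 in both celecoxib comparisons (-0.48 ± 0.08 against control, adjusted p = 0.0079) and Kcnq5 between the drugs.

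Several members moved with the nerve, fat, connective tissue or endothelial markers of a library. Of 440 relations between the 44 genes and 10 marker scores, 10 passed by both Pearson's r and Spearman's rho (24 libraries, 100000 permutations each, Benjamini-Hochberg adjusted over 440), all positive and of the same sign within each of the 3 groups. The points share the libraries and their depth. The nerve score took part in 6 of the 10, of which 5 are described. Against the Schwann cell and nerve score (20 of 21 markers tested), Kcna1, a fast axonal pore, had r = 0.88 and rho = 0.86, with a raw permutation p of 1e-05, the smallest that 100000 permutations can give, and adjusted p of 0.00088 and 0.00147. Without celecoxib library 7 and control library 6, the 2 libraries farthest from the median score, r was 0.85, and within control, celecoxib and rofecoxib it was 0.90, 0.79 and 0.93. The highest Kcna1 levels were 33.8 CPM in celecoxib library 7, 31.0 in rofecoxib library 4 and 29.8 in control library 6, whose nerve scores were 4.75, 4.2 and 4.37, also the highest of their groups. The lowest level was 2.43 CPM in control library 3, which had the lowest score of 0.92.

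Kcna6, the neighbour of Kcna1 on chromosome 6, had r = 0.88 and rho = 0.85 with the same score, and 0.82 for r without the 2 farthest libraries. Kcnj10, an inward rectifier of glia, had r = 0.85 and rho = 0.78 (0.76 without them). Kcnt1, a sodium-activated pore of neurons, had r = 0.72 and rho = 0.64 (0.67 without them), and Kcnj12 r = 0.61 and rho = 0.63 (0.57 without them). Adjusted p by Pearson's r was 0.00088 for Kcna6 and Kcnj10, 0.00189 for Kcnt1 and 0.0428 for Kcnj12, and by rho it ran from 0.00147 to 0.0456 over these genes. In the intervals of celecoxib against control, Kcna1 spanned -0.31 to 1.56 on the log2 scale, and its nerve score ran from 1.52 to 4.75 with celecoxib and from 0.92 to 4.37 in control. Kcna5, the third gene of that stretch of chromosome 6 (126482369 to 126690882 for all 3), was not among the relations that passed.

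Kcnk3 followed the fat scores. Against the brown adipocyte score (13 of 14 markers tested) r was 0.82 and rho 0.75 (adjusted p = 0.00088 and 0.00293 by permutation), and r was 0.71 without control library 6 and celecoxib library 5, the 2 farthest. Within control, celecoxib and rofecoxib r was 0.98, 0.85 and 0.26. Against the white and general adipocyte score r was 0.80 and rho 0.69 (adjusted p = 0.0022 and 0.0154), and 0.56 without control libraries 6 and 4. Kcnk6 followed the fibroblast and adventitia score (r = 0.74, rho = 0.72, adjusted p = 0.00189 and 0.00629; 0.67 without the 2 farthest libraries). Kcnq1 followed the endothelial score (r = 0.76, rho = 0.77, adjusted p = 0.00244 and 0.0022; 0.59 without the 2 farthest). None of Kcns3, Kcnq5, Kcnd3, Kcnab1 and Kcnip4 had a relation that passed.

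**Figure D4:**
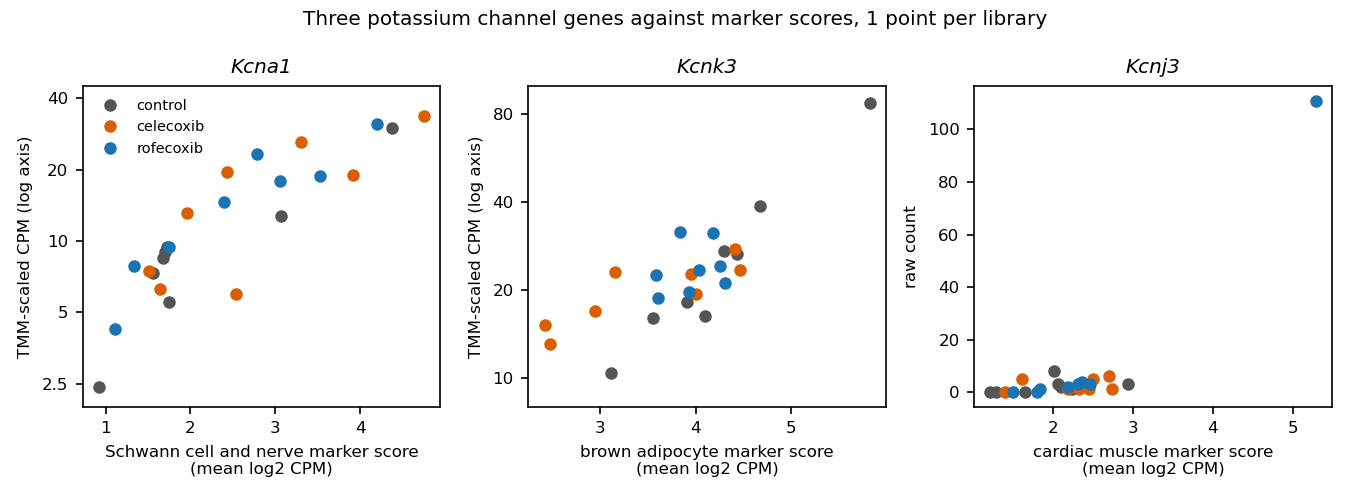
Levels of Kcna1 and Kcnk3 (TMM-scaled CPM, log axes) and raw counts of Kcnj3 against marker scores (mean log2 CPM of the list), 1 point per library coloured by group. Kcna1 rises with the nerve score in every group, Kcnk3 is highest in the control library with the highest brown adipocyte score, and Kcnj3 stands apart in rofecoxib library 2 alone, the library with the highest cardiac score.

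Kcnj3 and Kcnj5, the paired subunits of the acetylcholine-gated channel of the heart's atria, lay under the minimum. Rofecoxib library 2 held 111 and 56 raw counts of them, and the other 23 libraries 0 to 8 and 0 to 7. That library is the one with the highest cardiac muscle score, and its part in these counts was not tested.

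Of the partners of these channels, 14 of 18 partner subunits and channel regulators were tested. None was called against control with either drug, where 1.41% and 5.3% of all genes were called. Between the drugs, 4 of the 14 were lower and 0 higher with celecoxib, where 11.2% of all genes were lower and 11.5% higher. Abcc9, the sulfonylurea receptor that pairs with Kcnj8, lay at 376 ± 56.0 CPM in control, 339 ± 46.8 with celecoxib and 418 ± 38.4 with rofecoxib, a difference of -0.30 ± 0.09 between the drugs (edgeR adjusted p = 0.0199). Cav1, a scaffold of membrane caveolae, differed by -0.20 ± 0.05 (adjusted p = 0.0112) and Akap5, an anchor of protein kinase A, by -0.54 ± 0.17 (adjusted p = 0.022). These 3 calls were kept in all 24 fits without one library, and after the GC correction their adjusted p was 0.0611, 0.135 and 0.0883. Prkg1, the cyclic GMP-dependent kinase, differed by -0.76 ± 0.27 (adjusted p = 0.047) but kept its call in 10 of 24 such fits. It was lost without celecoxib library 1, 3, 5, 6, 7 or 8, rofecoxib library 7 or 8, or control library 1, 2, 4, 5, 7 or 8 (adjusted p 0.0504 to 0.141). After the GC correction Prkg1 had -0.60 and was not called (edgeR adjusted p = 0.127). Abcc8, the receptor that pairs with Kcnj11, was low at 1.30 ± 0.361 CPM in control and was not called.

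Of 20 genes for calcium entry and release, 19 were tested. With celecoxib against control none was called, where 1.41% of all genes were. With rofecoxib against control 1 was called higher and 2 lower, where 5.3% of all genes were called. Ryr2, a calcium release channel, was higher by 0.47 ± 0.10 (edgeR adjusted p = 0.0174), and Orai1, the pore of store-operated entry, fell by 0.38 on the log2 scale (SE 0.09, adjusted p = 0.0185). Both were kept in all 24 fits without one library. Without control library 6 and rofecoxib library 2 together neither was called (edgeR adjusted p = 0.0515 for Ryr2 and 0.0551 for Orai1). After the GC correction Ryr2 had 0.42 (adjusted p = 0.0276), while Orai1 had -0.21 and was no longer called (adjusted p = 0.0974). With the smooth muscle score as a covariate the adjusted p of Ryr2 and Orai1 was 0.148 and 0.173. Ryr2 is also on the cardiac marker list, so a fit with the cardiac score as a covariate cannot separate Ryr2 from that score. In that fit the Ryr2 change was 0.45 (edgeR adjusted p = 0.0353). Cacna1g, a low-voltage calcium pore, had -0.44 ± 0.13 (adjusted p = 0.0495) and kept its call in 5 of 24, without celecoxib library 2, rofecoxib library 3 or 5, or control library 6 or 8. Without any other library its adjusted p was 0.0501 to 0.110. Between the drugs 5 of the 19 were higher and 3 lower with celecoxib, where 11.5% of all genes were higher and 11.2% lower. Cacna1g was higher by 0.64 ± 0.13 (edgeR adjusted p = 0.0026), at 14.2 to 21.5 CPM with celecoxib and 7.80 to 13.9 with rofecoxib. These ranges did not meet, where 0.81% of all genes had groups apart with celecoxib higher. Cacna1g was kept after the GC correction (0.48, edgeR adjusted p = 0.0311). Orai1 (0.37 ± 0.09) and Cacnb3 (0.33 ± 0.09) were also higher in all 24 fits but had adjusted p of 0.194 and 0.223 after that correction. Cacna1c, the main calcium entry pore of vessel muscle, did not pass, with an edgeR adjusted p of 0.413 between the drugs.

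The other calls between the drugs in the calcium list were less steady. Itpr1, an inositol trisphosphate receptor, had -0.28 ± 0.08 and was lost without rofecoxib library 8 (-0.23, edgeR adjusted p = 0.0514). Cacna2d4 (-0.87 ± 0.28), an auxiliary calcium channel subunit, was lost without celecoxib library 5 or 6 or rofecoxib library 3, 7 or 8 (adjusted p 0.0554 to 0.0656). Cacna2d1 (-0.20 ± 0.07) was lost without celecoxib library 3, 4, 6, 7 or 8 or rofecoxib library 1, 7 or 8 (0.0663 to 0.0963). Cacnb1 (0.30 ± 0.10) was lost without celecoxib library 3, 4, 5, 7 or 8 or rofecoxib library 2, 3, 4, 7 or 8 (0.0536 to 0.0856). After the GC correction alone Cacnb1 had 0.09 (edgeR adjusted p = 0.478), while Itpr1 (0.0443) and Cacna2d4 (0.0432) kept their calls. Stim1 (0.10 ± 0.04), the sensor that opens Orai1, was kept without celecoxib library 2, rofecoxib library 1 or 6, or control library 2 or 6, and otherwise had an adjusted p of 0.05003 to 0.109.

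Of 24 other channels and pumps that set the membrane potential, 20 were tested. With celecoxib against control 1 was called lower and 0 higher, and with rofecoxib against control 0 were called, where 1.41% and 5.3% of all genes were called. Between the drugs 1 of the 20 was called higher and 3 lower with celecoxib, where 11.5% of all genes were higher and 11.2% lower. Trpv4, a calcium-permeable channel of endothelium and other vessel cells, was higher with celecoxib by 0.79 ± 0.16 (16.1 ± 2.79 against 9.29 ± 2.69 CPM, adjusted p = 0.0024) and kept its call in all 24 fits without one library and after the GC correction (0.61, adjusted p = 0.0123). Clcn3 (-0.30 ± 0.07) was lower in all 24 such fits but not after the correction (adjusted p = 0.122). Slc8a1 (-0.56 ± 0.19), a sodium-calcium exchanger, was lost without celecoxib library 5, 7 or 8 or rofecoxib library 1, 7 or 8 (adjusted p 0.0535 to 0.0873). Slc12a2 (-0.22 ± 0.08), a chloride-loading cotransporter, was lost without celecoxib library 1, 3, 4, 6, 7 or 8 or rofecoxib library 1, 2, 7 or 8 (adjusted p 0.0502 to 0.101).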

How the data were processed

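RNA of 24 mouse thoracic aorta samples was sequenced from polyA-selected libraries, per the labels' protocols. The submitters' processing notes name CASAVA 1.8.2, STAR 2.5.1b and the mm9 build; how reads were counted, strand and shared reads included, and which step made the library totals nearly equal are not given in these sources. The authors deposited whole-number counts per gene. Counts were tested with edgeR 4.0.16 (filterByExpr by group, TMM, robust quasi-likelihood fit, 21 residual degrees of freedom) over all 24 libraries, with p-values adjusted over the 14451 genes tested. SEs were derived from the size of the log2 fold change and its F statistic. Exon lengths and GC content came from GENCODE M21, a GRCm38 annotation, matched by gene identifier (1 gene, Kcnj11, by symbol, whose counts the GC correction left as they were), while gene positions are those of the deposited mm9 table. Marker scores are means of log2 CPM with a prior count of 2. Score differences between groups were tested with two-sided exact permutation tests.

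The 44 genes, the partner lists and the marker lists were chosen with earlier results of these data known. Named genes are those called, the 3 with the smallest p in each comparison, the 3 with the highest level per kb in each class, and a list of vessel physiology genes; Kcnip1, the genes related to a marker score, Kcnj3 and Kcnj5 were named after their values were seen. Alternatives were DESeq2 1.42.0, library totals, no filter, fits of the 2 groups only, each library left out, a replicate block, a GC correction and marker scores as covariates, of which the cardiac score was added after seeing the data. Scripts were tested on simulated counts. Results for a few genes are not reported here, though counts of calls include them.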

Additional observations from a re-analysis of the deposited data

Results flagged for a closer look

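In 81 groups of 8 libraries (27 named genes in 3 groups), 5 had a highest or lowest library whose gap to the next exceeded Dixon's 95% limit for that number; chance alone flags about 1 in 20 groups. Kcnk3 was at 87.15 CPM in control library 6, with the next at 38.82. Kcne4 was at 57.88 CPM in celecoxib library 4, with the next at 38.31. Kcnmb1 was at 349.8 CPM in rofecoxib library 1, with the next at 300.1. Kcng4 was at 2.23 CPM in control library 2, with the next at 1.512. Kcnj2 was lowest at 0.5511 CPM in control library 5, with the next at 0.8935. Control library 6 also had the highest brown adipocyte score of the 24 libraries, 5.82. Kcnk3 moved with that score over the libraries, as given above, but the part of the score in this single value was not tested.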

How the results depend on the processing

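For celecoxib against control the number of potassium channel genes called was 1 in every fit but that with the smooth muscle score as a covariate, which gave 0, a fit that called 0 of all genes; without one library it was always 1. For rofecoxib against control the number of 1 became 0 with no filter on low counts, with only the 2 groups, without control library 6 and rofecoxib library 2 together, with the replicate block, with the GC correction alone or with the block, and with the brown adipocyte or smooth muscle score as a covariate. It became 3 with the nerve score as a covariate and 4 with DESeq2, and ran from 0 to 3 without one library, at 3 without control library 4. For celecoxib against rofecoxib the number of 5 became 2 with the GC correction, alone or with the block, and ran from 3 (without celecoxib library 8) to 6 without one library (celecoxib 1, 2 or 3, rofecoxib 5 or control 2). The cause was not tested.

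Of 24 same-numbered pairs of samples 10 had a correlation over 0.1 (range -0.39 to 0.32), and 5 samples correlated best with their own number. Whether replicate numbers pair the samples is not settled by these values. The replicate block gave 1, 0 and 6 calls in the 3 comparisons, adding Kcnn4 between the drugs. The Kcnk3 change of -0.57 in celecoxib against control turned to 0.23 with the brown adipocyte score and 0.072 with the smooth muscle score as a covariate, neither called. On library totals 0 of 132 group levels moved beyond the spread. With the longest transcript as length, 26 of 44 ranks per kb moved, by at most 3 places, and the 5 highest genes were the same 5. Low counts limit the genes near the minimum, whose intervals are wide.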
